A study of Homo sapiens with 7 samples.

Results

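Homologous recombination and the Fanconi anaemia pathway were followed through 35 listed repair genes in the human urothelial carcinoma cell line UM-UC-3. The members were taken by gene symbol from the deposited table, which held all 35 among its 13872 rows, and all 35 passed the filter on low values that left 12705 rows for testing. RNA came from 3 clones high in ALDH (H1, H6 and H10, the H clones), which the submitters take as cancer stem-like, from 3 low in it (L1, L3 and L8, the L clones), taken as their non-stem-like counterpart, and from 1 wild-type culture that served as control. The clones had been sorted by ALDEFLUOR, an assay in which cells with aldehyde dehydrogenase (ALDH) activity become fluorescent, and the growth protocol names DMEM with fetal bovine serum. Each library was 1 clone, all clones came from 1 line, and the wild type had no replicate, so p-values measure the spread between clones of that line.

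Homologous recombination mends a broken chromosome by copying the intact sister. The ends are trimmed to expose a single strand, BRCA2 with PALB2 readies that strand to pair with the sister, and helicases and nucleases then take the joined strands apart. The Fanconi pathway deals with strands that are chemically crosslinked: a core complex attaches ubiquitin to FANCD2 and FANCI, and nucleases and recombination follow. These pathways act mostly in S and G2 phase, and many of their genes are transcribed with the genes of DNA replication. Loss of such genes in tumours is known for sensitivity to platinum drugs, which are used against urothelial carcinoma.

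The values are counts scaled to a common library size (CPM), 1 value per gene and library, and are not scaled by gene length, so levels are compared between libraries and not between genes. Reads recovered from the CPM steps summed to between 24177114 and 25664901 per library over all 13872 rows. As 1017 of these rows share all values with another row, some reads may be counted more than once. The members had between 77 and 6066 reads in each library. As a check of the sort label, ALDH1A1, which encodes such a dehydrogenase, stood at 96.32, 33.37 and 42.2 CPM in H1, H6 and H10, against 0, 0.08 and 0 CPM in L1, L3 and L8. Of 20 urothelial markers 5 were in the table (KRT7, KRT8, KRT18, FOXA1 and PPARG), and uroplakins and GATA3 were not. In the clones KRT18 stood at 142.95 to 582.39 CPM and KRT8 at 56.16 to 168.33 CPM. KRT7 (1.48 to 6.68 CPM), PPARG (0.24 to 7.94 CPM) and FOXA1 (0.4 to 0.68 CPM) were low there, and FOXA1 did not pass the filter. Of 7 leukocyte markers 1 was in the table (CD68, which many other cells also express, at 84.3 to 130.8 CPM in the H clones, against 64.4 to 92.9 CPM in the L clones and 139 CPM in wild type, and whose part in the results was not tested), and of 9 fibroblast and endothelial markers 0 were.

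Whether the repair genes follow the sort was asked by setting the H against the L clones, and no repair gene passed the test. Limma, fitted to log2(CPM + 1) over all genes with Benjamini-Hochberg adjustment, called 0 of 35 members at an adjusted p under 0.05, against 1.34% of all genes tested. At an unadjusted p under 0.05 there were 14 members, all higher in the H clones, against 19.7% of all genes in either direction and 10.4% in that one. In 16 members all H clones lay above all L clones, against 14.0% of all genes, and in 0 members all lay below, against 12.1%. In 30 of 35 members the H clones had the higher mean, against 50.4% of all genes, with a median change of 0.33 log2 units, beside 0.0036 over all genes tested. The members were chosen with earlier results of these data known. These shares, and those set against wild type below, are therefore a description only. By edgeR's quasi-likelihood test on the recovered reads 0 members passed, and by DESeq2 6 passed (EXO1, FANCA, RAD51AP1, XRCC3, RBBP8 and FANCD2), against 1.02% and 7.90% of all genes. In RNA from whole cultures, fewer cells that express a gene and less RNA per cell cannot be told apart.

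**Figure D1:**
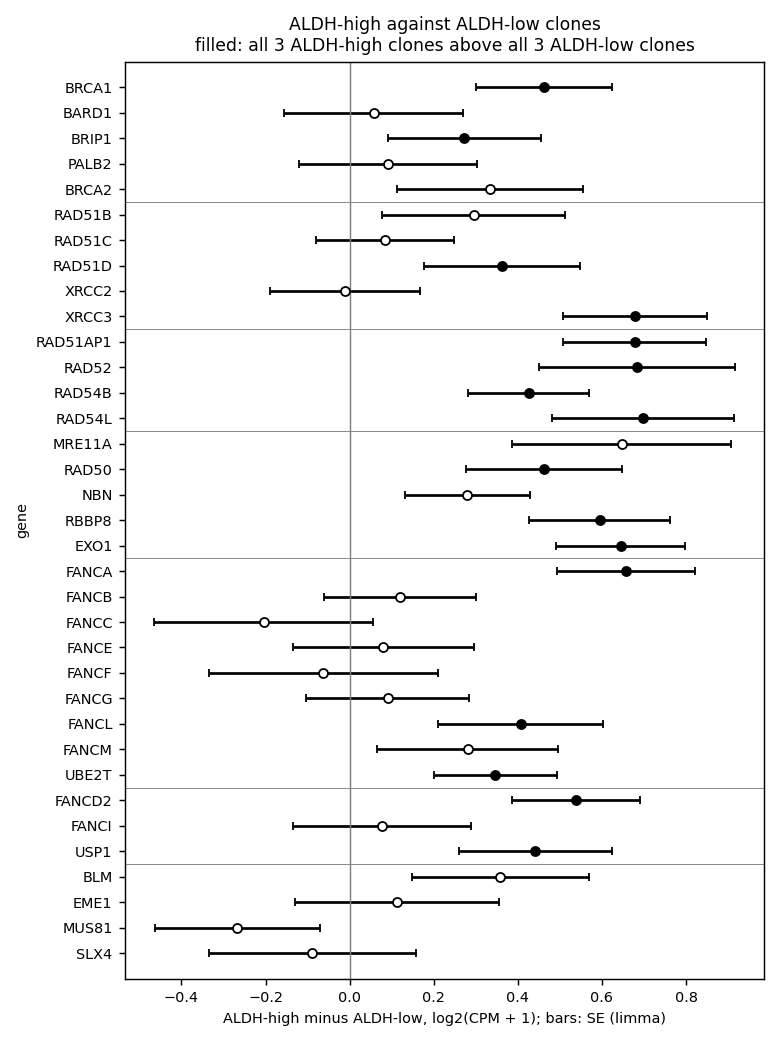
Change in each of the 35 repair genes, as H minus L clones on the scale of log2(CPM + 1), with the standard error from limma as the bar (3 clones each). Filled points mark the 16 genes in which all H clones lay above all L clones, against 14.0% of all genes. All 4 strand exchange genes (RAD51AP1, RAD52, RAD54B and RAD54L) are filled, and none of the 4 junction-processing genes is.

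End resection opens the pathway, and its 5 genes were all higher on average in the H clones (median change 0.59 log2 units). EXO1, the exonuclease of long-range resection, had 37.79, 37.27 and 43.52 CPM in H1, H6 and H10, against 23.76, 27.46 and 23.52 CPM in L1, L3 and L8, and 15.23 CPM in wild type. The clone groups were 9.81 CPM apart at their nearest, and wild type lay below all clones. EXO1 had the smallest p of the members, with a change of 0.65 log2 units (SE 0.153) and a limma adjusted p of 0.0865. RBBP8, which encodes the resection factor CtIP, had 22.49, 27.21 and 29.08 CPM in the H clones, against 17.4, 17.64 and 15.88 CPM in the L clones, and 13.71 CPM in wild type. Its groups did not overlap either, at a change of 0.59 log2 units (limma adjusted p = 0.117), but its row holds the same values as that of MIR4741, so the source of the reads is uncertain.

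The MRE11A, RAD50 and NBN products form the complex that first binds a break. MRE11A, its nuclease, had 34.37, 43.18 and 35.52 CPM in the H clones, against 18.12, 36.02 and 20 CPM in the L clones, and 29.77 CPM in wild type. L3 stood with the H clones, and MRE11A varied most of all members over the 6 clones (SD 0.494 on the log2 scale). With that clone left out the change was 0.94 log2 units, in place of 0.65, and the limma adjusted p was 0.0658 in place of 0.222. With any other clone left out the change was between 0.47 (without L1) and 0.71 log2 units (without H1). The limma adjusted p of those fits was between 0.238 and 0.471. RAD50, the ATPase of the complex, averaged 72.2 ± 13.9 CPM in the H clones and 51.9 ± 7.69 CPM in the L clones (SD, n = 3 each), and its groups were 0.84 CPM apart. NBN, its regulatory subunit, averaged 98.6 ± 12.8 CPM in the H clones and 80.6 ± 4.95 CPM in the L clones, with overlap. Neither passed (limma adjusted p of 0.222 and 0.343).

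The 4 strand exchange genes RAD51AP1, RAD52, RAD54B and RAD54L were higher in each H clone than in any L clone, as were 14.0% of all genes. By limma and edgeR 0 of them passed. RAD51AP1, which helps strands pair, had 59.33, 79.79 and 81.48 CPM in H1, H6 and H10, against 41.12, 48.83 and 45.72 CPM in L1, L3 and L8, and 31.45 CPM in wild type. RAD54L, a motor protein that remodels chromatin during strand exchange, had 26.03, 36.61 and 38.52 CPM in the H clones, against 22.68, 16.03 and 22.36 CPM in the L clones, and 12.75 CPM in wild type. In both genes H1 was the lowest of its group and wild type the lowest library. Their changes were 0.68 (SE 0.170) and 0.70 (SE 0.216) log2 units, with limma adjusted p of 0.0959 and 0.142. RAD54B, a related motor protein, had 38.58, 39.77 and 38.08 CPM in the H clones, against 27.96, 26.75 and 31.36 CPM in the L clones, and 34.05 CPM in wild type. RAD52, an annealing protein, had 14.23, 12.81 and 14.84 CPM in the H clones, against 6.04, 11.08 and 8.44 CPM in the L clones, and 10.27 CPM in wild type. For RAD54B wild type lay in the gap between the groups, and for RAD52 it lay among the L clones (limma adjusted p of 0.166 and 0.168).

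Among RAD51B, RAD51C, RAD51D, XRCC2 and XRCC3, a family of 5 whose products work together in complexes, XRCC3 had the largest change. XRCC3 had 56.94, 74.57 and 77.76 CPM in the H clones, against 43.6, 38.3 and 47 CPM in the L clones, and 24.46 CPM in wild type. Its change was 0.68 log2 units (SE 0.171, limma adjusted p = 0.0968), and neither clone group overlapped the other or wild type. XRCC2 had 41.41, 35.01 and 43.64 CPM in the H clones, against 33.44, 47.3 and 40.92 CPM in the L clones, and 14.51 CPM in wild type. The clone groups of XRCC2 overlapped (change -0.01 log2 units, limma adjusted p = 0.979), and the wild type lay well below both. RAD51B had 14.74, 9.85 and 13.32 CPM in the H clones, against 9.6, 11.86 and 8.72 CPM in the L clones, and 15.07 CPM in wild type, where it was highest. RAD51C averaged 47.9 ± 6.20 CPM in the H clones and 45.0 ± 4.98 CPM in the L clones. RAD51D averaged 9.12 ± 0.055 CPM in the H clones and 6.91 ± 0.913 CPM in the L clones, without overlap (limma adjusted p = 0.331), and is listed under 2 identifiers with identical values, counted here as 1 gene.

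**Figure D2:**
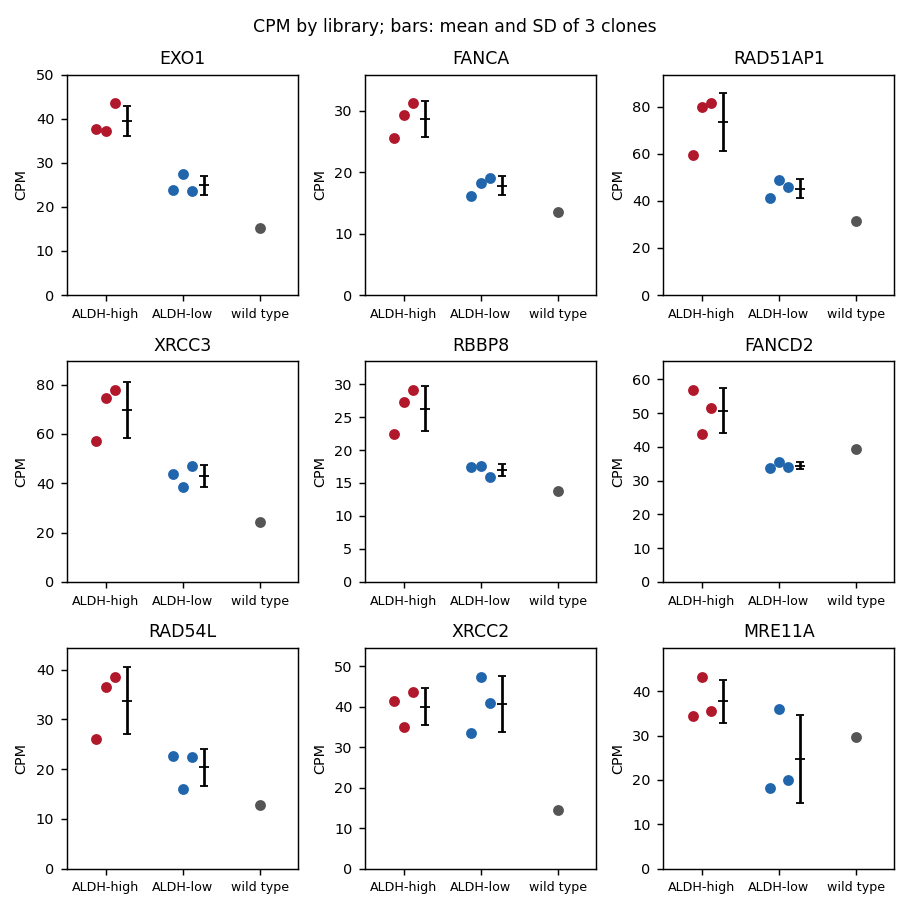
CPM in each library (points) for 9 repair genes, with the mean and SD of 3 clones beside the points (the wild type is 1 library). In XRCC2 the clone groups overlap and wild type is far lower at 14.51 CPM; in FANCD2 wild type, at 39.41 CPM, lies between the clone groups; in MRE11A L3 lies among the H clones.

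BRCA1 and its 4 partners had a median change of 0.27 log2 units. BRCA1, the ubiquitin ligase that promotes resection, had 46.85, 45.6 and 53.44 CPM in the H clones, against 29.76, 36.96 and 38.8 CPM in the L clones, and 23.86 CPM in wild type. It was the 1 member of this set of 5 at an unadjusted limma p under 0.05, a share near the 19.7% of all genes. Its change was 0.46 log2 units (limma adjusted p = 0.175). BARD1, its obligate partner, had 8.07, 12.35 and 9.56 CPM in the H clones, against 8.44, 10.61 and 9.36 CPM in the L clones, and 7.67 CPM in wild type. The L clones of BARD1 lay within the range of the H clones, with a change of 0.06 log2 units (limma adjusted p = 0.902). BRIP1, a helicase bound to BRCA1, had 16.37, 16.95 and 15.04 CPM in the H clones, against 11.08, 13.71 and 14.96 CPM in the L clones, and 9.83 CPM in wild type, so its groups were only 0.08 CPM apart. PALB2, the link between BRCA1 and BRCA2, had 16.53, 14.16 and 12 CPM in the H clones, against 11.44, 16.46 and 12.16 CPM in the L clones, and 12.95 CPM in wild type. BRCA2 had 9.3, 10.3 and 10.36 CPM in the H clones, against 5.84, 9.9 and 7.84 CPM in the L clones, and 5.44 CPM in wild type. PALB2 showed no order of groups, while BRCA2 was low in L1 and in wild type (limma adjusted p of 0.842 and 0.446).

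In the Fanconi pathway, differences between the subunits of a complex were not tested. Of the core complex and its E2 enzyme (9 genes), FANCA, a scaffold subunit, had 25.55, 29.35 and 31.24 CPM in the H clones, against 16.08, 18.31 and 19.04 CPM in the L clones, and 13.59 CPM in wild type. Its change was 0.66 log2 units (SE 0.164, limma adjusted p = 0.0942), without overlap. FANCF, an adaptor of the core, had 4.97, 5.05 and 3.12 CPM in the H clones, against 5.28, 5.62 and 3.08 CPM in the L clones, and 8.07 CPM in wild type, above all clones. FANCL, the ubiquitin ligase, averaged 22.4 ± 3.75 CPM in the H clones and 16.6 ± 2.41 CPM in the L clones, and UBE2T, the E2 enzyme that works with it, averaged 224 ± 22.3 CPM in the H clones and 176 ± 17.9 CPM in the L clones. These 2 did not overlap (limma adjusted p of 0.2998 and 0.242). The other core genes overlapped, with changes of 0.12 for FANCB, -0.20 for FANCC, 0.08 for FANCE, 0.09 for FANCG and 0.28 log2 units for the translocase gene FANCM.

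FANCD2 and FANCI form the dimer that receives ubiquitin, and of the pair only FANCD2 had groups without overlap. FANCD2 had 56.82, 43.71 and 51.68 CPM in the H clones, against 33.64, 35.55 and 34.12 CPM in the L clones, and 39.41 CPM in wild type (change 0.54 log2 units, SE 0.153, limma adjusted p = 0.118). FANCI had 29.92, 33.78 and 31.44 CPM in the H clones, against 22.56, 39.28 and 30.36 CPM in the L clones, and 16.35 CPM in wild type. In FANCI the L clones spanned the H clones (change 0.08 log2 units, limma adjusted p = 0.870). USP1, which removes that ubiquitin, had 69.42, 71.78 and 72.96 CPM in the H clones, against 67.72, 46.98 and 44.88 CPM in the L clones, and 42.68 CPM in wild type. L1 came within 1.70 CPM of the H clones (limma adjusted p = 0.229).

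The 4 genes that process joined strands had 0 members at an unadjusted p under 0.05 by limma, against 19.7% of all genes. By limma, edgeR or DESeq2 0 passed, against 1.34%, 1.02% and 7.90% of all genes. A count of 0 in 4 genes cannot be told apart from these shares. BLM, a helicase that dissolves junctions, averaged 13.8 ± 1.59 CPM in the H clones and 10.7 ± 2.32 CPM in the L clones, against 5.72 CPM in wild type. MUS81, a junction nuclease, averaged 18.9 ± 4.30 CPM in the H clones and 22.6 ± 1.83 CPM in the L clones, and had the most negative change of the members at -0.27 log2 units (limma adjusted p = 0.492). Its partner EME1 had a change of 0.11 and the nuclease scaffold SLX4 one of -0.09 log2 units.

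The members differed between clones of 1 group as well. L1 was the lowest of the 6 clones for 20 of 35 members, with a median of -0.30 log2 units from the mean of the clones, beside -0.03 for all genes. L3 and L8 had medians of -0.04 and -0.11, and H1, H6 and H10 of 0.17, 0.20 and 0.19. H10 was the highest of the 6 for 14 members. These counts of lowest and highest clone were made over the members only, so no share of all genes stands beside them. Without L1, 27 members had a higher mean in the H clones and 9 had an unadjusted p under 0.05, and without H10 the second count was 8, in place of 14. Over all genes the share at that threshold was also lower, at 14.9% without either clone, against 19.7% with all 6.

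**Figure D3:**
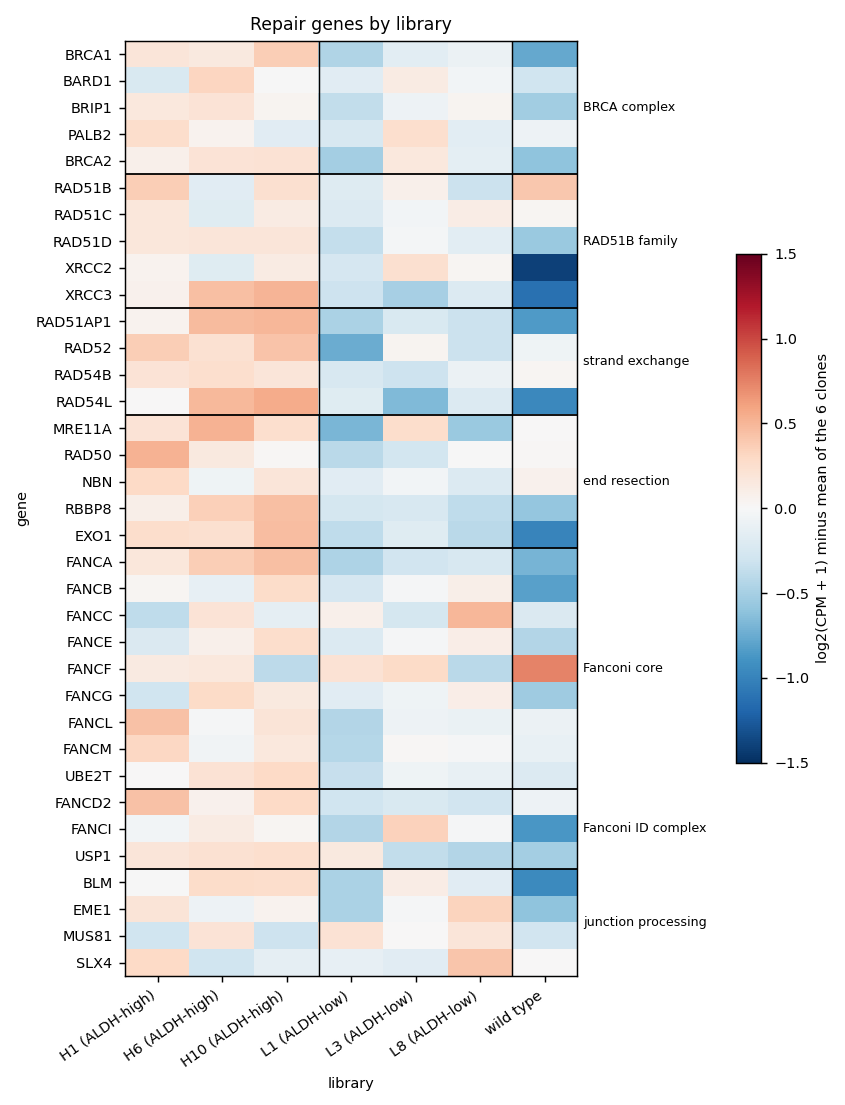
Each of the 35 repair genes (rows, by role) in each of the 7 libraries (columns), as log2(CPM + 1) minus the mean of the 6 clones; red is above and blue below that mean. L1 is the lowest clone in 20 rows, which was not counted over all genes. Wild type is below all clones in 19, against 25.4% of all genes tested.

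The wild-type culture, the control of the study, can be set beside the clones but not tested. In 19 of 35 members (54.3%) all 6 clones lay above wild type, against 25.4% of all genes tested, and in 2 members, FANCF and RAD51B, all lay below, against 22.6%. The mean of the clones minus wild type had a median of 0.44 log2 units over the members, beside 0.04 over all genes. On that scale it was widest for XRCC2 (1.40 log2 units), XRCC3 (1.12) and EXO1 (0.99), which were 2.78-fold, 2.30-fold and 2.12-fold higher in the mean of the clones. By the ratio of CPM, BLM at 2.14-fold came before EXO1, and RAD54L was also at 2.12-fold. On the other side FANCF had -0.74 and RAD51B -0.40 log2 units. In 9 of the 19 the clone groups overlapped (BARD1, BRCA2, XRCC2, FANCB, FANCE, FANCG, FANCI, BLM and EME1), and in the other 10 the order was H clones, L clones, wild type without overlap, against 2.46% of all genes. Conversely RAD52, RAD54B, RAD50, FANCL, UBE2T and FANCD2 separated the clone groups with wild type inside the range of the clones. This comparison and that of the H with the L clones share the clones, so they are not independent.

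**Figure D4:**
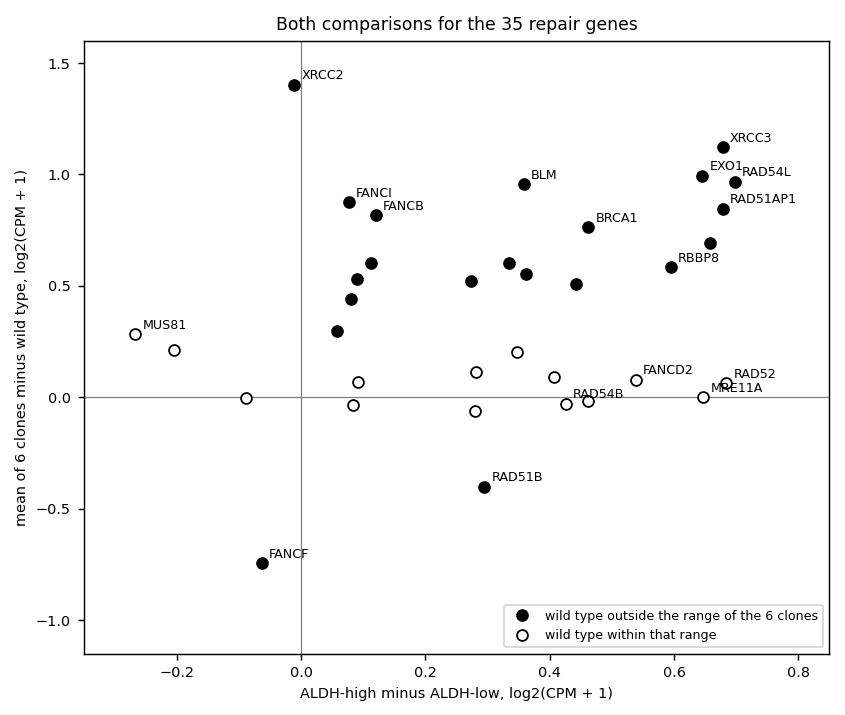
For each of the 35 repair genes, H minus L clones (horizontal) and the mean of the 6 clones minus wild type (vertical), both on log2(CPM + 1). Filled points have wild type outside the range of the clones; XRCC2 is high at 1.40 with almost no difference between clone groups, while FANCD2 and RAD52 lie to the right near 0. Both axes use the same clones.

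Genes of DNA replication lay on the same side as the members in both comparisons. Of 38 replication genes limma passed 2, which both rose in the H clones, edgeR passed 1 and DESeq2 5. Of all genes these tests passed 1.34%, 1.02% and 7.90%. At an unadjusted limma p under 0.05 there were 24, all higher in the H clones, against 10.4% of all genes in that direction. PRIM1, the primase subunit that starts each new strand, had 155.89, 140.98 and 143.6 CPM in the H clones, against 59.84, 84.14 and 66.88 CPM in the L clones, and 69.26 CPM in wild type. PRIM1 rose, with a change of 1.07 log2 units (limma adjusted p = 0.0287), and lost its call when any clone other than L3 was left out (adjusted p up to 0.125). The second was MCM4, a subunit of the replicative helicase (limma adjusted p = 0.0406), which lost its call when any clone other than H1 was left out (up to 0.168), and with edgeR, with a minimum of 5 CPM or without a variance trend (up to 0.0665). The replication list had a median change of 0.41 log2 units, and its clones-minus-wild-type median was 0.81. All 38 genes summed to 3465 to 3962 CPM in the H clones, against 2658 to 2689 CPM in the L clones and 1791 CPM in wild type. The part of replication genes in the values of the repair genes was not tested.

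Mitosis genes lay mostly on the other side between the clone groups, though not in L3. Of 24 such genes 6 had a higher and 18 a lower mean in the H clones (median -0.15 log2 units). By limma or edgeR 0 passed, and by DESeq2 1 passed, against 1.34%, 1.02% and 7.90% of all genes. At an unadjusted limma p under 0.05 there were 3 (1 higher and 2 lower), against 19.7% of all genes. From the mean of the clones, the list had medians of 0.17 in L1 and 0.18 log2 units in L8. In L3 the median was -0.15, below those of H1, H6 and H10 (-0.0096, -0.1284 and -0.0316). Against wild type the mitosis genes were higher in the clones, with a median of 0.43 log2 units.

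**Figure D5:**
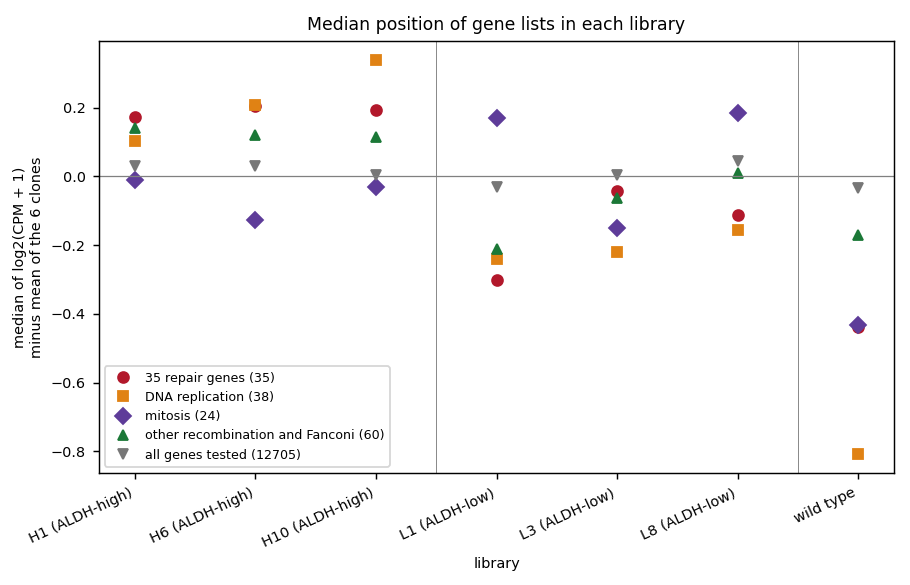
Median over each gene list of log2(CPM + 1) minus the mean of the 6 clones, in each library, with the number of genes in brackets. The 35 repair genes lie at 0.17 to 0.20 in the H clones, at -0.30 to -0.04 in the L clones and at -0.44 in wild type; replication genes reach -0.81 in wild type.

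Recombination and Fanconi genes outside the 35 had a smaller median change. Of 64 listed, 60 were tested, and 45 had a higher and 15 a lower mean in the H clones (median 0.17 log2 units). Limma and edgeR passed 0, DESeq2 passed 6, all higher, against 7.90% of all genes. At an unadjusted p under 0.05 there were 13, all higher, against 10.4% of all genes in that direction and 19.7% in either. CHEK1, the checkpoint kinase of stalled replication, had 122.03, 146.97 and 125.64 CPM in the H clones, against 79.88, 80.33 and 61.36 CPM in the L clones, and 70.66 CPM in wild type. It came nearest to the threshold (0.83 log2 units, limma adjusted p = 0.0543).

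In the other repair pathways limma and edgeR each passed 1 gene, against 1.34% and 1.02% of all genes. UNG, which removes uracil from DNA in base excision repair, had 181.28, 205.87 and 213.2 CPM in the H clones, against 96, 113.02 and 101.96 CPM in the L clones, and 91.44 CPM in wild type. UNG rose by 0.94 log2 units (limma adjusted p = 0.0272), and lost its call without H6, H10, L1 or L8 (up to 0.131). Limma and edgeR passed 0 of the other 17 base excision genes. DESeq2 passed 3 of the 18, all higher in the H clones and UNG among them, against 7.90% of all genes. Limma and edgeR passed 0 genes of end joining (15 tested), mismatch repair (7) and nucleotide excision repair (23). DESeq2 passed 0, 1 and 1, against that same 7.90%. At an unadjusted limma p under 0.05 there were 3, 1 and 6, against 19.7% of all genes. In the H clones 1 of these was higher and 2 lower in end joining, and 1 higher and 5 lower in nucleotide excision. The 1 in mismatch repair was higher. Of all genes 10.4% were higher and 9.31% lower at that threshold. The median changes of these lists were -0.02, 0.22 and -0.15 log2 units. Of the 23 nucleotide excision genes, 14 had a lower and 9 a higher mean in the H clones. In the H clones ERCC5, a nuclease gene, averaged 0.504 of the mean of the L clones (limma adjusted p = 0.0808).

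The stretch of 250 bases before the RefSeq gene start (GRCh38.p14) was searched because members and replication genes stood together, and E2F factors are known regulators of both. An E2F core was taken as TTNNCGC with each N a C or a G, on either strand. It was in 10 of 32 matched members (31.2%), against 11.0% of 27305 genes. Those genes were counted whether or not they were expressed here, so the motif shares are not of the genes tested. The stricter form with a further T in front was searched first and was in 2 members, against 2.79%. The shorter core was chosen after that count was seen, so its share in the members is a description of these promoters and supports nothing. CCAAT, the letters bound by NF-Y, was in 13 of 32 members, against 33.0%, and TTTGAA, a cell cycle element, in 3, against 13.6%. The core was in 7 of 18 matched members with wild type below all clones and in 3 of the other 14. The longer form, searched first, was in 1 of those 18 and in 1 of those 14. The split of the shorter core therefore supports nothing either. A match describes letters only. The promoters of 3 members with small p are shown with the core in capitals, each in the direction of its gene: FANCA at chr16:89816648-89816897 (minus strand), RAD51AP1 at chr12:4538640-4538889 and RAD54L at chr1:46247438-46247687 (both plus strand). Each held 1 core and 1 CCAAT.
FANCA: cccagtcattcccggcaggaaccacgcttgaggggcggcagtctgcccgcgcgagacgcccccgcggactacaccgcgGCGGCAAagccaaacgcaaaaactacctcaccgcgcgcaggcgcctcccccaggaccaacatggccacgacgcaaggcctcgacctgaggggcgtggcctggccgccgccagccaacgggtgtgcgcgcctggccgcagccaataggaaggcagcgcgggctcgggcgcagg
RAD51AP1: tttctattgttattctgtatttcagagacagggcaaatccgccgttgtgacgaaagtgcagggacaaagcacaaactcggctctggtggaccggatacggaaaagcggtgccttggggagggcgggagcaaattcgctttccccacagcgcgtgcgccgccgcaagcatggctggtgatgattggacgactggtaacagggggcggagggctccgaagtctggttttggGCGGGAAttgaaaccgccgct
RAD54L: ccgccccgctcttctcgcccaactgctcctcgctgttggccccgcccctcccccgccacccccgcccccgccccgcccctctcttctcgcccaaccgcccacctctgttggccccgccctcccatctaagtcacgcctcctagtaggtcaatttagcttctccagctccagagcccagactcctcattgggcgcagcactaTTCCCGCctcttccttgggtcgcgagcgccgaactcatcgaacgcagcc
The core ended 165 bases before the start in FANCA, 14 in RAD51AP1 and 42 in RAD54L. No core was found in this window for EXO1, XRCC3, RBBP8 or FANCD2.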

How the data were processed

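RNA was measured in 7 libraries (3 ALDH-high clones, 3 ALDH-low clones, 1 wild type). The authors deposited 1 table of CPM rounded to 2 decimals, per the file headers, where each column name carries the word forCAGEr (CAGEr is a package for 5′-end tags). The submitters' processing notes name hg19, mm9 and BWA 0.5.9 with no role, and gene counting and the assay are not given in the sources used here. Of 13872 rows, 1017 share all values with another row.

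Rows that reached 1 CPM in 3 or more of the 6 clones (12705) were kept. Values on log2(CPM + 1) were fitted by limma 3.58.1 under R 4.3.3 (eBayes with trend, two-sided, Benjamini-Hochberg over all rows, threshold 0.05). The scale understates changes of low genes. An exact permutation test of 1 gene cannot go below p = 0.1 with 3 against 3. Whole reads were recovered within rounding (0.0051 CPM) for 99.95 to 100% of values, and for 78.68 to 99.81% within 0.1 read, and edgeR 4.0.16 and DESeq2 1.42.0 were run on them as alternatives. The fits were tested on simulated data, in which the planted changes were larger than that of any member. Whether they find changes of the members' size was not tested.

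Members and gene lists were chosen with earlier results of these data known. CPM in every library is given for the 8 members with the smallest p, the 3 with the largest spread over clones, those farthest from wild type, the BRCA1 and BRCA2 set, and FANCD2, FANCI and USP1. From other lists at most 3 genes with the smallest p are named, and 1 further gene of the naming rule is not reported here. Promoters are from the RefSeq table, where 32 of 35 members matched (RAD54B, NBN and FANCI did not). Of the promoter motifs, the shorter E2F core was added after the longer form had been counted. Alternatives were both count tests, each clone left out, all 7 libraries in 1 fit, quantile or median-ratio scaling, pseudocounts 5 and 0.1, a minimum of 5 CPM or none, and eBayes either robust or without a trend.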

Additional observations from a re-analysis of the deposited data

How the results depend on the processing

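The count of 0 members passing limma was also 0 under every alternative tried except DESeq2, which gave 6. It was 0 with each clone left out, and the smallest adjusted p in any of those fits was 0.0578 (RAD51AP1). The median change of 0.33 log2 units ranged from 0.26 (without L1) to 0.38 with a clone left out, and from 0.25 (pseudocount 5) to 0.35 otherwise. The count of 21 members with wild type outside the clones was 19 with quantile normalization. It was 21 to 23 with a clone left out. That count could not fall, as leaving out a clone never widens the range of the others. Of 385 member values under the other alternatives 1 changed sign, XRCC2 at 0.0119 log2 units with quantile normalization. Of 210 values with a clone left out 16 changed sign, in 9 members: BARD1 (-0.0922 to 0.19), EME1 (-0.10 to 0.31), FANCE (-0.032 to 0.21), FANCF (-0.28 to 0.12), FANCG (-0.0322 to 0.26), FANCI (-0.12 to 0.27), PALB2 (-0.0157 to 0.24), SLX4 (-0.26 to 0.10) and XRCC2 (-0.14 to 0.10), so the sign of these small changes depends on the clones. The cause was not tested. No paired analysis was possible because the clone groups share only the number 1, which names a clone. The members had at least 77 reads in every library, and intervals for reads would cover counting error only. The spread rests on 3 clones per group.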
